A study of Mus musculus with 6 samples.

Results

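Cyclins, the kinases they switch on, the inhibitors of those kinases and the genes that start and carry out DNA replication were followed in endothelial cells sorted from smoke-exposed mice. The set holds 76 of the 11138 genes named on the array. It was taken by symbol alone. The rule took symbols that begin with Ccna to Ccnl, with Cdk or Cdc and a number, or with Mcm2 to Mcm9. It also took the Cdkn inhibitors other than Cdkn1a, E2f1 to E2f8, Pcna and Mki67. All were taken where measured. The rule reads no measured value, though the set was proposed with earlier results of these data known. It also brought in 10 genes with a Cdc or Mcm name that were grouped here under other functions. Among them is Cdc42, a small GTPase of the cytoskeleton.

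Each of the 6 arrays was hybridised with RNA from endothelial cells of mice given tobacco smoke in channel 1 and of control mice in channel 2, and gave 1 log2 ratio per spot. After 1 week of smoke there were 3 arrays, of which replicate 1 is labelled a dye reversal. After 6 weeks there were 2 arrays against 1-week control, an array and its dye reversal, which were averaged as 1 replicate, and 1 array against 6-week control. The organ, strain, sex, age and smoke dose, the age of the control of the 1-week arrays, and whether replicates came from separate animals are not given in the sources used here, so p-values measure only the spread between these arrays, which may be technical. Ratios kept the sign in which they were deposited. The direction of that ratio is not stated, so a positive value is likely, from the order of the channels, but not certainly, a higher level after smoke. A ratio array gives no level, so the endothelial identity of the cells could not be checked from the level of their markers, and in bulk RNA fewer cells of a type and less RNA per cell cannot be told apart.

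Cell division is driven by cyclins, which are made and destroyed in turn and activate cyclin-dependent kinases: D cyclins with Cdk4 and Cdk6 and then E cyclins with Cdk2 lead a cell into DNA synthesis, and A and B cyclins with Cdk1 lead it into mitosis. E2F factors switch on the genes of DNA synthesis, such as the Mcm helicase and Pcna, the clamp that holds the polymerase on DNA, while the Cdkn inhibitors hold the kinases back. In healthy adult vessels most endothelial cells are at rest and cycle only rarely, and they re-enter the cycle when the lining is repaired or new vessels grow.

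Many of these genes carry the same short motifs before their start. In the 250 bases before the most upstream RefSeq start (GRCm38.p6), 64 of the 76 genes had a sequence. An E2F motif, searched on both strands as TTTCCCGC, TTTGGCGC, TTTCGCGC or TTTGCCGC, was found in 9 of them (14.1%), against 1.92% of the 27025 genes with such a sequence and 2.8% of those on the array. The CHR motif TTTGAA of mitotic genes, also on both strands, was in 16 of the 64 against 16.3% of all, and together with CCAAT it was in 11 genes (17.2%) against 5.76%. These 4 windows show the replication type, the mitotic type and a gene with both. The lines give Mcm6 (chr1:128359706-128359955, minus strand), Cdk1 (chr10:69352913-69353162, minus strand), Ccnb2 (chr9:70421555-70421804, minus strand) and Cdc20 (chr4:118437344-118437593, minus strand), 5′ to 3′ on the strand of the gene and ending at the base before its start, with E2F, CHR and CCAAT matches of either strand in capitals.
Mcm6: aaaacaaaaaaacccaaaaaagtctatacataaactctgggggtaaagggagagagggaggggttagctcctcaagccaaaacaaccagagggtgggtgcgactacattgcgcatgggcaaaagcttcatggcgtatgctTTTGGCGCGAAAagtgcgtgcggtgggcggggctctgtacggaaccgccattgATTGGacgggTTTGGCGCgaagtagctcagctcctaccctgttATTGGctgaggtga
Cdk1: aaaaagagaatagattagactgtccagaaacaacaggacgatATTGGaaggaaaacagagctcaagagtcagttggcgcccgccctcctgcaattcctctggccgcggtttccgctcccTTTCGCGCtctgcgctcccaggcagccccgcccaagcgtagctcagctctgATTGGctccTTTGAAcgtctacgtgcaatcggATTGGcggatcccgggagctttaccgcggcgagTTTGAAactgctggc
Ccnb2: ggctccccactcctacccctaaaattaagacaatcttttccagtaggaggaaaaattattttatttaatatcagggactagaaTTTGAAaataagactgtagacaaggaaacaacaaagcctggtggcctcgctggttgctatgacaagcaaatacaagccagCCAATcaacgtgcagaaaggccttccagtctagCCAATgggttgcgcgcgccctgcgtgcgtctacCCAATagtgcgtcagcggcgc
Cdc20: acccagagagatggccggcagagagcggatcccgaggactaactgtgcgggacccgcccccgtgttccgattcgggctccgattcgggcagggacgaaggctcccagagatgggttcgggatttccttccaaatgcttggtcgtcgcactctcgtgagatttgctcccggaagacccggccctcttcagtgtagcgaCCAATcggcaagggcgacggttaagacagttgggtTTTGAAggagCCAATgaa
Mcm6, a subunit of the replicative helicase, held 3 E2F matches, the farthest beginning 110 bases before the start and overlapping a second that begins at 106. Cdk1 held all 3 motifs, with a CHR match beginning 15 bases before its start. Ccnb2 held 3 CCAAT matches, beginning 87, 54 and 21 bases before the start, and a CHR match at 167. Cdc20, which activates the anaphase-promoting complex, held a CHR match at 18 bases and CCAAT matches at 53 and 8. A match is a description of letters and no evidence that a factor binds there.

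No gene of the set passed an adjusted p of 0.05 after 1 week, after 6 weeks, for the difference between the times or for their mean. The test was limma's moderated test with Benjamini-Hochberg adjustment over 19242 tests, which called 0% of all features in each of these comparisons. The smallest adjusted p in the set was 0.652 at 1 week (Cdc37l1) and 1 at 6 weeks. At an unadjusted p under 0.05 there were 6 of 76 genes at 1 week, 3 with a positive and 3 with a negative ratio, where 6.65% of all features were past that mark, and 0 at 6 weeks, where 4.12% were. For the difference between the times the set had 0 such genes against 3.55% of features, and for the mean of both times it had 2, Cdc42ep3 and Cdc42ep2, against 6.31%. The count of 6 at 1 week was 3 without 1-week replicate 1, 3 without 1-week replicate 3, and 3 with the sign of the 1-week dye reversal turned. In these settings 1353, 941 and 773 of the 19242 features were past that mark, against 1280 in the main fit.

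Because 2 spots of a gene often disagreed, the same test was run on the 5625 genes whose spots agreed to within 1 log2 unit throughout, among them 47 of the 76. That fit called 1.81% of its genes at 1 week, 0.213% at 6 weeks, 0% for the difference and 1.83% for the mean of both times, and 0 of the 47 in any of them. Its unadjusted p was under 0.05 for 7 of the 47 at 1 week, against 14.1% of its genes, and for 2 of the 47 at 6 weeks, against 7.77%. The count of 7 was 4 without 1-week replicate 1, 3 without 1-week replicate 3 and 1 with the 1-week reversal turned. In these settings 888, 552 and 300 of the 5625 genes were past that mark, against 795 in the main fit. With the 1-week reversal turned 3 of the 5625 were called at 1 week. The background of this fit moved as well: its 102 called genes at 1 week were 65 without 1-week replicate 1, 14 without replicate 2, 1 without replicate 3 and 25 without the array against 6-week control. Its 12 at 6 weeks were 21 without 1-week replicate 1, 8 without replicate 2, 2 without replicate 3 and 0 without the array against 6-week control, and its 103 in the mean were 51 without 1-week replicate 2, 25 without replicate 3 and 0 without the array against 6-week control. The smallest adjusted p among the 47 was 0.118 at 1 week (Cdc40), 0.59 at 6 weeks (Pcna), 0.618 for the difference (Pcna) and 0.138 for the mean (Cdc42ep2).

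The ratios of the set lay around 0 at both times. At 1 week 32 genes were above and 44 below 0, with a median of -0.05, and at 6 weeks 44 were above and 32 below, with a median of 0.07, where the median over all features was 0. The typical size of a ratio was 0.22 at 1 week and 0.15 at 6 weeks, beside 0.21 and 0.19 over all features. Medians on single arrays ran from -0.11 on 1-week replicate 2 to 0.14 on the array against 6-week control, and without that last array the 6-week median was -0.01. On each array 2 to 5 of the 76 genes were beyond 2-fold in either direction. The share of all features beyond that mark was not counted, so this count has no background beside it. The standard deviation over the set was above that over all named genes on 1-week replicate 1 (0.57 against 0.45) and below it on every other array.

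**Figure D1:**
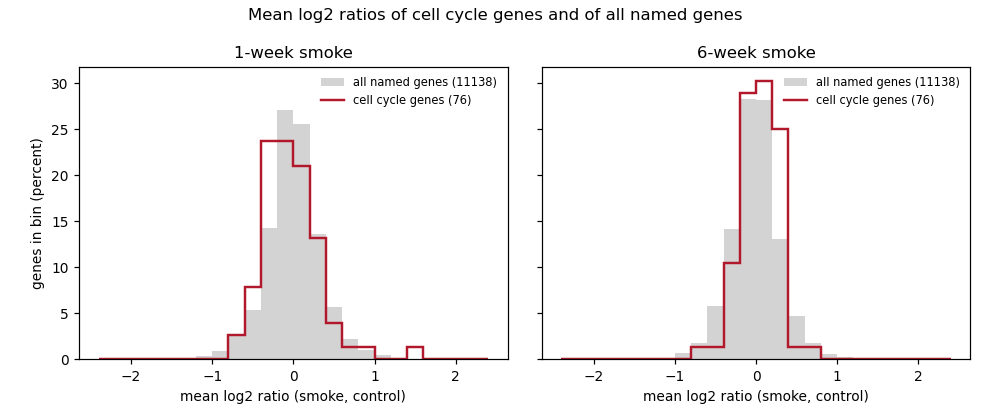
Share of genes (percent, vertical axis) by mean log2 ratio (horizontal axis) at 1 week and at 6 weeks, with the 11138 named genes in grey and the 76 cell cycle genes as a red outline; genes past the ends of the axis are in the end bins. The outline is centred near 0 at both times, with medians of -0.05 and 0.07.

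Absence of a call does not show that the genes did not differ. The intervals measure only the spread between these arrays with the dye reversals signed as deposited, so they do not bound a difference under another sign. With the 1-week reversal turned, the 1-week mean of Cdc37l1 went from 0.91 to 0.05 and that of Ccnb2 from 1.40 to -0.58. The 95% interval of the fit lay wholly within 2-fold in either direction for 58 of the 76 genes at 1 week and for 57 at 6 weeks, but for only 36 in the difference between the times. The distance from the mean to either end of the interval had a median of 0.49 at 1 week and 0.60 at 6 weeks on the log2 scale. The narrowest belonged to Cdk11b, at 0.36 and 0.44, and the widest to Ccnf, at 1.42 and 1.73.

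**Figure D2:**
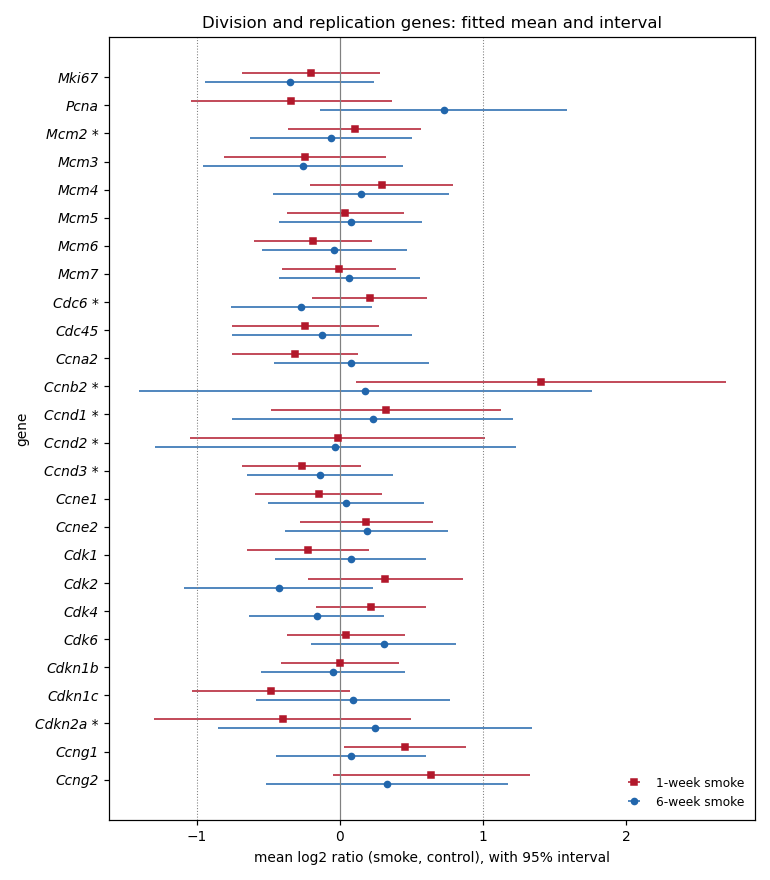
Mean log2 ratio (horizontal axis) of 26 genes of division and replication with its 95% interval from the fit, at 1 week (squares, 3 replicates) and at 6 weeks (circles, 2 replicates), with dotted lines at 2-fold in either direction; an asterisk marks a gene whose spots differed by 1 log2 unit or more on an array. At 1 week only the intervals of Ccnb2 and Ccng1 lie clear of 0 among those drawn, and at 6 weeks none does.

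Among the 9 A to F cyclins that drive division, 3 had a positive and 6 a negative ratio at 1 week, and 6 and 3 at 6 weeks. Ccnb2, a B cyclin of mitosis, stood out at 1 week with log2 ratios of 2.98, 0.30 and 0.94, a mean of 1.40 ± 0.51 (SE, n = 3) and an adjusted p of 0.739. The highest array is the dye reversal, whose 2 spots read 2.13 and 3.83, and without it the mean was 0.62, or -0.58 with its sign turned. At 6 weeks Ccnb2 read -0.06, 0.19 and 0.29, below all 3 of the 1-week arrays. Ccna2, which pairs with Cdk2 and then Cdk1 as cells replicate DNA and enter mitosis, read 0.01, -0.53 and -0.42 at 1 week and -0.20, 0.23 and 0.15 at 6 weeks, so that its groups overlapped. The E cyclins of entry into DNA synthesis were close to 0 at both times, Ccne1 at -0.15 ± 0.18 and 0.05 ± 0.22 (SE) and Ccne2 at 0.19 ± 0.18 and 0.19 ± 0.23.

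The D cyclins, which couple growth signals to the cycle, could not be pinned down. Ccnd1 read -0.35, 0.14 and 1.18 at 1 week, and its spots on the last of these arrays read 2.74 and -0.38. Ccnd2 ran from -1.10 to 1.09 over the same 3 arrays around a mean of -0.01 ± 0.41 (SE, n = 3). Ccnd3 was negative on all 3, at -0.54, -0.21 and -0.06, with a mean of -0.27 ± 0.17. Ccnf, a substrate-binding part of a ubiquitin ligase, read 0.46, -0.24 and -2.50, where the spots of the last array were -0.25 and -4.75.

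The group of 8 other cyclins includes Ccndbp1, which is not itself a cyclin and was taken in by its symbol. Of the 8, 3 had 1 sign on all 1-week arrays, beside 2 of the 9 above and 23.8% of all features. Ccng1, a target gene of p53, read 0.64, 0.18 and 0.54, a mean of 0.45 ± 0.17 (SE, n = 3) with an adjusted p of 0.222 among genes with agreeing spots, and 0.08 ± 0.21 at 6 weeks. With the sign of the 1-week dye reversal turned its 1-week mean was 0.02. Its 6-week arrays, at -0.17, 0.14 and 0.17, were all below its 1-week arrays, though only narrowly, with 0.17 beside 0.18. Ccng2, a cyclin linked to cell cycle arrest, was at 0.95 and 1.01 on the first and the third 1-week array and at -0.05 on the second, and its mean of 0.64 was 0.0045 with the reversal turned. Ccnl1, a partner of Cdk11 in splicing, was negative on every 1-week array, at -0.51, -0.19 and -0.54, and averaged -0.41 ± 0.16, with an adjusted p of 0.24 among genes with agreeing spots. With the reversal turned the 1-week mean of Ccnl1 was -0.07. Ccnl2, its close relative, read 0.12, 0.13 and 0.11, the mean of 6 spots that differed by up to 1.29 on these arrays.

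Of the 6 kinases of division, 5 had a positive mean at 1 week and 3 at 6 weeks, and 0 had an unadjusted p under 0.05 at either time. The kinase with a negative 1-week mean was Cdk1, the kinase of mitosis, which read -0.03, -0.12 and -0.52 at 1 week and -0.01, 0.05 and 0.13 at 6 weeks, with all 6-week arrays above all 1-week arrays. Cdk2, the partner of the E cyclins, read 0.56, -0.03 and 0.42 at 1 week and -0.38, 0.21 and -0.77 at 6 weeks. Cdk4 was above 0 on all 1-week arrays, at 0.34, 0.28 and 0.03, while Cdk6 averaged 0.05 ± 0.16 (SE, n = 3). Cdk7, which activates the other kinases and also serves transcription, averaged 0.28 ± 0.21 at 1 week and -0.25 ± 0.26 at 6 weeks, and its partner Ccnh ran from -1.24 to 0.94 at 1 week.

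Kinases and partners with work outside division numbered 14, of which 5 were positive at 1 week and 10 at 6 weeks. Cdk9, which releases paused RNA polymerase, read 0.24, -0.51 and 0.26 at 1 week. Cdk5, a kinase best known in neurons, read 0.08, -0.93 and 0.01, and its activator Cdk5r1 read 0.09, -1.04 and -0.14, so that the second array was the low one for both. At 6 weeks Cdk5r1 ran from -1.05 to 1.56, with a mean of -0.24 ± 0.46 (SE, n = 2). Cdk2ap1, a binding partner of Cdk2, was negative on all 1-week arrays, at -1.22, -0.10 and -0.35, and the spots of the lowest read -2.35 and -0.08.

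The 7 Cdkn genes were small in the fit over all features, with 3 positive and 4 negative at each time and 0 at an unadjusted p under 0.05; among the 4 with agreeing spots 1 was past that mark at 1 week. In the mean of both times all 7 were below 0, from -0.19 to -0.02, with a median SE of 0.15. Of the 19242 features 9585 were below 0 in that mean. The shared direction rests on the deposited sign: with both dye reversals turned, Cdkn1b, Cdkn1c and Cdkn2a were positive at both times. Cdkn1c, the inhibitor p57, was negative on all 1-week arrays at -0.80, -0.33 and -0.31, a mean of -0.48 ± 0.22 (SE, n = 3) with an adjusted p of 0.301 among genes with agreeing spots. Its 1-week mean was 0.05 with the reversal turned. At 6 weeks it ran from -0.52 to 0.48. Cdkn1b, the inhibitor p27 of resting cells, read -0.13, 0.26 and -0.14 at 1 week and averaged -0.05 ± 0.20 (SE, n = 2) at 6 weeks. Cdkn2a, a gene that rises in senescence, read -1.37, -0.31 and 0.48 at 1 week, with spots of -2.73 and 0.00 on the first array. Cdkn2c and Cdkn2d, which block Cdk4 and Cdk6, averaged -0.09 and 0.06 at 1 week and -0.04 and -0.15 at 6 weeks.

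**Figure D3:**
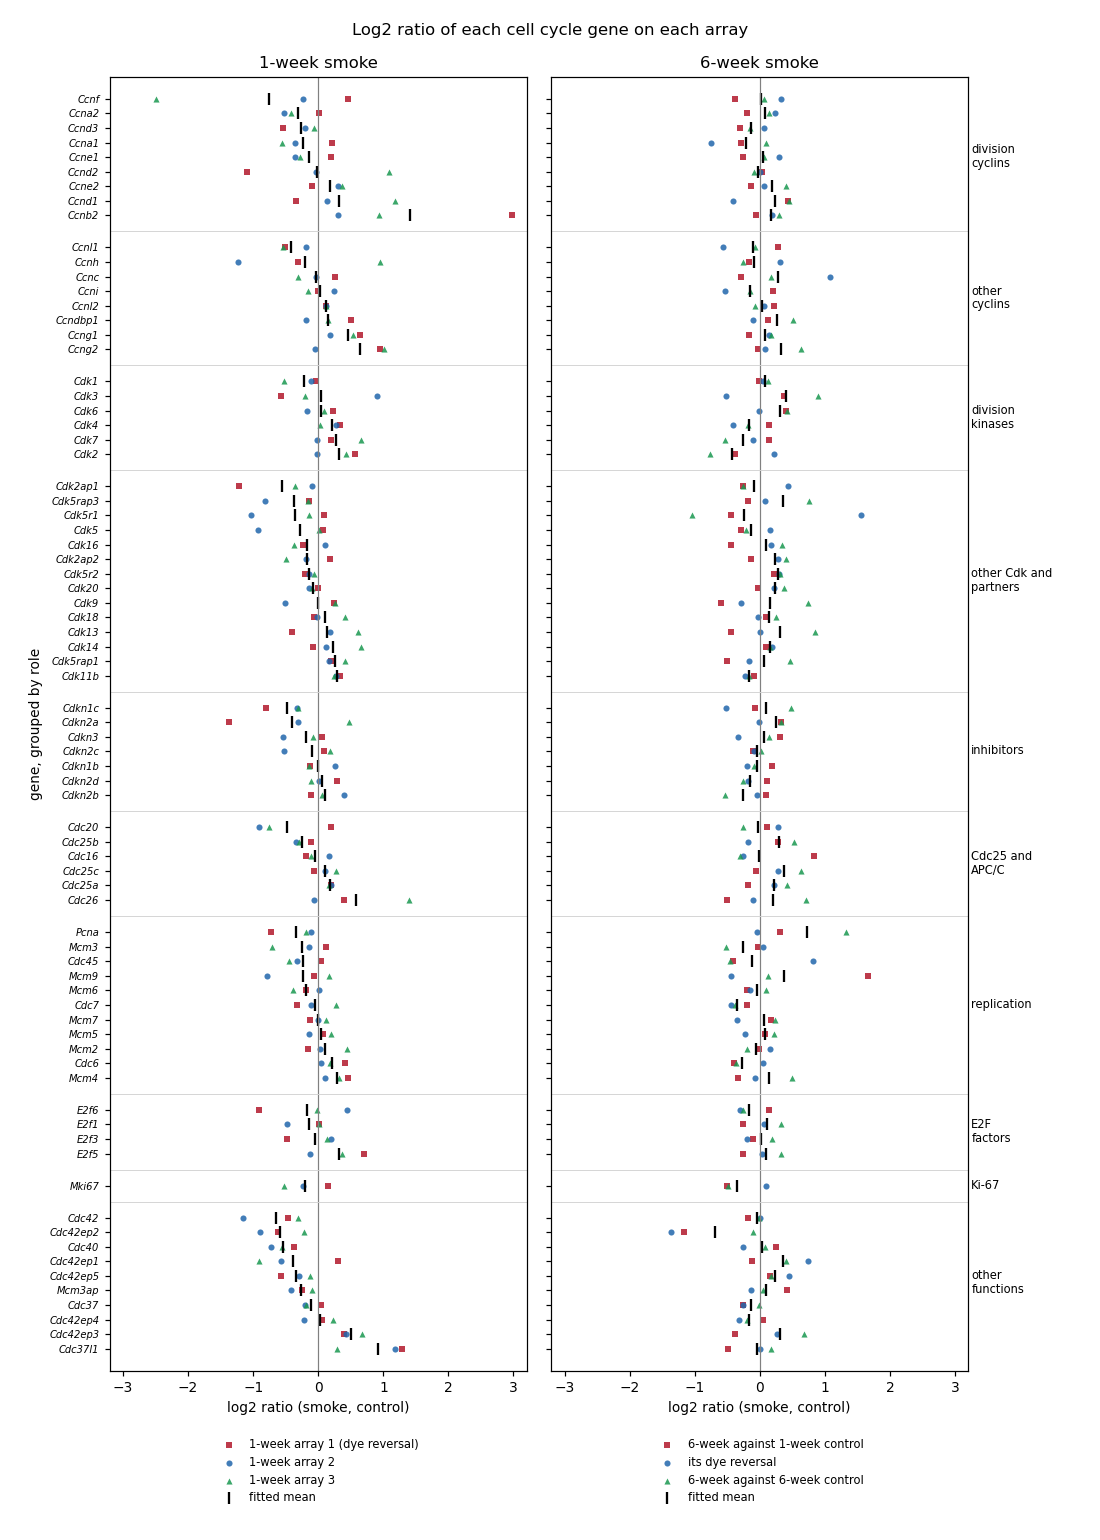
Log2 ratio (horizontal axis) of each of the 76 genes on each array, in rows grouped by role, with the 3 arrays of 1 week on the left and the 3 of 6 weeks on the right; symbols mark the arrays and the black bar the fitted mean. Most rows straddle 0, and points far from it belong to single arrays, such as Ccnb2 on 1-week replicate 1 (2.98) and Ccnf on 1-week replicate 3 (-2.50).

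The 6 genes of the Cdc25 phosphatases and the anaphase-promoting complex split evenly at 1 week, 3 positive and 3 negative. Cdc25a, which removes the inhibitory phosphates of Cdk2, was the steadiest at 0.19, 0.19 and 0.16. Cdc25b, its relative for entry into mitosis, was negative on all 1-week arrays at -0.11, -0.34 and -0.29, and averaged 0.29 ± 0.21 (SE, n = 2) at 6 weeks. Cdc25c was positive in the mean of each time, at 0.10 ± 0.18 and 0.37 ± 0.22. Cdc20 read 0.20, -0.91 and -0.75 at 1 week, with spots within 0.17 of each other, while at 6 weeks its spots differed by up to 1.43.

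Replication genes numbered 11, with 4 positive and 7 negative at 1 week, 5 and 6 at 6 weeks, and 0 at an unadjusted p under 0.05 at either time over all features; among the 7 with agreeing spots 1 was past that mark at 6 weeks. Mcm2 to Mcm7, the 6 subunits of the helicase that opens DNA, had means between -0.24 (Mcm3) and 0.29 (Mcm4) at 1 week and between -0.26 (Mcm3) and 0.15 (Mcm4) at 6 weeks. Mcm6, whose spots never differed by more than 0.21, read -0.19, 0.01 and -0.38 at 1 week and -0.20, -0.15 and 0.10 at 6 weeks. Cdc6, which loads the helicase, read 0.41, 0.05 and 0.17 at 1 week and -0.39, 0.04 and -0.36 at 6 weeks. Cdc45, part of the moving helicase, averaged -0.24 ± 0.20 (SE, n = 3) and -0.12 ± 0.25 (SE, n = 2).

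Pcna had the largest 6-week mean of the set, 0.73 ± 0.34 (SE, n = 2), with an adjusted p of 0.59 among genes with agreeing spots. It read 0.30 and -0.05 on the array against 1-week control and its dye reversal, and 1.33 against 6-week control, so 1 array carries the mean. Without that array the 6-week mean was 0.13. At 1 week Pcna was negative on all 3 arrays, at -0.72 (the dye reversal), -0.11 and -0.18, and its 6-week arrays all lay above them. With the sign of that reversal turned its 1-week mean went from -0.34 to 0.14. With signs as deposited, the difference between the times was 1.07 ± 0.44, with an adjusted p of 0.618 among genes with agreeing spots.

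Mki67, which encodes the Ki-67 protein of cycling cells, did not follow Pcna. It read 0.15, -0.23 and -0.52 at 1 week and -0.51, 0.09 and -0.49 at 6 weeks. The means were -0.20 (95% interval -0.68 to 0.28) and -0.35 (95% interval -0.94 to 0.24), and the groups overlapped. The 4 E2F factors measured were also small: E2f1 averaged -0.15 ± 0.19 and 0.11 ± 0.23 (SE), E2f3 -0.05 ± 0.20 and 0.02 ± 0.25, and E2f5 0.31 ± 0.22 and 0.10 ± 0.27. E2f6, a repressor, read -0.91, 0.44 and -0.03 at 1 week.

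Genes that share an upstream motif lay on both sides of 0 at each time. The 9 with an E2F match, namely Cdc25a, Cdc6, Cdk1, Cdk2, Cdkn2a, E2f3, Mcm5, Mcm6 and Mcm7, had 4 positive and 5 negative ratios at 1 week, from -0.40 (Cdkn2a) to 0.32 (Cdk2). At 6 weeks they ran from -0.43 (Cdk2) to 0.24 (Cdkn2a), with the same 2 genes at the ends in the other order. Of the 11 with both CHR and CCAAT, 3 were positive and 8 negative at 1 week, and 6 and 5 at 6 weeks. Their medians were -0.19 and 0.02, beside -0.045 and 0.07 for the 53 genes without both. Of the 34 with CCAAT, 11 were positive and 23 negative at 1 week, with a median of -0.15 beside -0.01 for the 30 without it. At 6 weeks 20 were positive and 14 negative, with medians of 0.05 and 0.04. Whether a motif goes with a direction was not tested.

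The 10 genes grouped under other functions held 3 of the 6 with an unadjusted p under 0.05 at 1 week. Of all features 6.65% were past that mark. Cdc37l1, a relative of the Hsp90 cochaperone Cdc37, read 1.29, 1.17 and 0.28, with a mean of 0.91 ± 0.25 (SE, n = 3) and an adjusted p of 0.652, but its first spot averaged 1.40 and its last 0.43, and with the 1-week reversal turned the mean was 0.05. Cdc40, a splicing factor, read -0.37, -0.73 and -0.55, a mean of -0.55 ± 0.16 with an adjusted p of 0.118 among genes with agreeing spots. Cdc42 read -0.46, -1.15 and -0.31, with a mean of -0.64 ± 0.21, and its 6-week arrays at -0.18, 0.00 and -0.01 all lay above these. Without the group of 10, the remaining 66 genes had 29 positive and 37 negative ratios at 1 week and 39 and 27 at 6 weeks.

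Cdc42ep2, an effector that binds active Cdc42, was the only member with 1 sign on all 6 arrays. It read -0.62, -0.90 and -0.23 at 1 week, -1.16 and -1.37 on the array against 1-week control and its dye reversal, and -0.11 against 6-week control, with spots never more than 0.08 apart. The mean over both times was -0.63 ± 0.22 (SE, n = 5), with an adjusted p of 0.138 among genes with agreeing spots. Turning the sign of the 6-week dye reversal brought its 6-week mean from -0.69 to -0.0019. Its relative Cdc42ep3 was positive on all 1-week arrays at 0.39, 0.43 and 0.68, a mean of 0.50 ± 0.20 (SE, n = 3), while Cdc42ep1 ran from -0.91 to 0.30.

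Counts of genes with a steady sign depended on the sign taken for the dye reversals. As deposited, at 1 week 25 of the 76 genes (32.9%) had 1 sign on all 3 arrays, 11 positive and 14 negative, where 23.8% of all features did. At 6 weeks 7 genes (9.21%) did, where 18.2% of features did. With the reversal of each time turned the counts were 22 at 1 week (21% of features) and 25 at 6 weeks (19% of features). In 11 genes the 3 arrays of 6 weeks all lay on 1 side of the 3 of 1 week, where 9.13% of features did so: above for Cdc40, Cdc42, Cdc42ep5, Cdk1, Cdk5r2 and Pcna, and below for Ccnb2, Ccng1, Cdc37l1, Cdc6 and Cdk11b. For Ccnb2, Ccng1, Cdc6 and Cdk1 the nearest arrays of the 2 times almost met. In 3 of the 11 genes the signs were opposite on every array, against 1.85% of features. With both reversals turned the counts were 4 (Cdc25b, Cdkn3, Mcm2 and Mcm7) and 2 (Cdkn3 and Mcm2), beside 6.48% and 1.04% of features. With only the 6-week reversal turned they were higher, 15 and 5, beside 9.2% and 1.75% of features. With only the 1-week reversal turned they were 4 and 0, beside 8.38% and 1.68%. These shares were read as descriptions, with no test of the set.

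Repeat measurements set the limit. Of the 76 genes, 72 had 2 spots and 4 had more, and 29 had spots that differed by 1 log2 unit or more on some array. On each array the first and the last spot of the 72 genes correlated at 0.10 to 0.53. Over the 76 genes the 1-week arrays correlated with each other at 0.21, 0.14 and 0.25 (Pearson, a description across genes, which are not independent). The 6-week array against 1-week control and its dye reversal, of the same pair of labels, correlated at -0.19 over the 76 genes and at -0.03 over the 47 with agreeing spots. The dye reversals of the 2 exposure times correlated at 0.19 over the 76 genes, at 0.38 over the 47 and at 0.27 over all 11138 named genes; whether they share a control RNA is not given in the sources used here. The median difference between the 6-week array and its reversal was 0.37 for a gene of the set, where the typical size of a 6-week ratio was 0.15. These are unlike measures: the first compares 2 single arrays, and the second is the size of a mean over arrays.

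**Figure D4:**
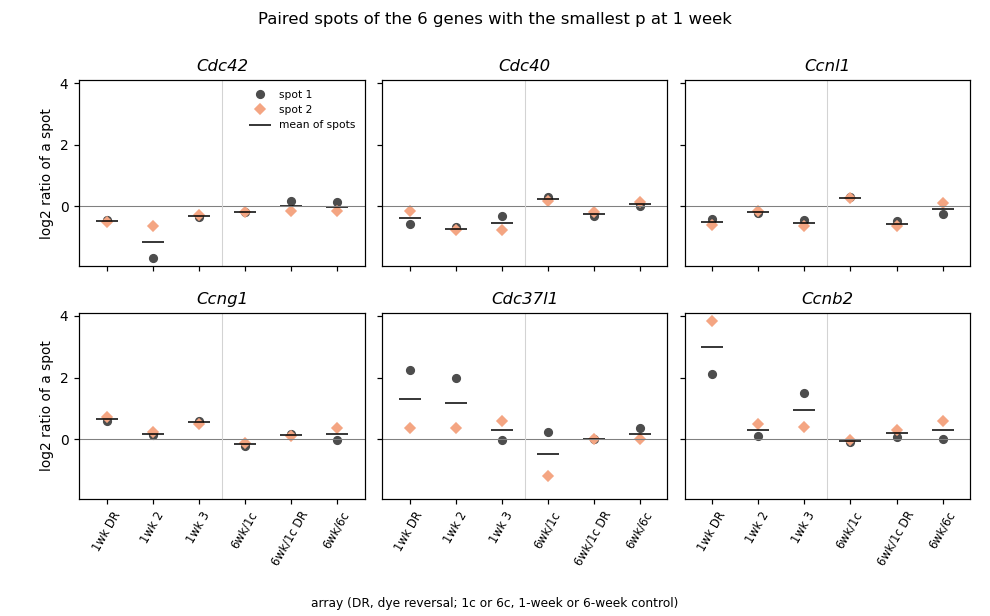
Log2 ratio of each spot (vertical axis) on each of the 6 arrays (horizontal axis) for the 6 genes with an unadjusted p under 0.05 at 1 week; circles and diamonds are the spots and bars their mean. The spots of Cdc40, Ccnl1 and Ccng1 differ by at most 0.46 on any array, while those of Ccnb2 on 1-week replicate 1 are at 2.13 and 3.83.

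Other genes of the cell cycle gave the same picture of small ratios with few standing apart. A list of mitotic, checkpoint, replication and condensin genes had 103 of 123 measured, with 45 positive and 58 negative at 1 week (median -0.02) and 51 and 52 at 6 weeks (median -0.0012), and 0 called at either time over all features or among the 58 with agreeing spots. An unadjusted p under 0.05 was reached by 5 of the 103 at 1 week, where 6.65% of all features reached it. These were Smc4, a condensin subunit, at 0.79, and on the negative side Gins1 of the replication helicase at -0.64, the cohesin subunit Smc1a at -1.43, Mad2l2 at -0.53 and Pkmyt1 at -0.41. At 6 weeks it was reached by 1, Pkmyt1, the kinase that holds Cdk1 inactive, where 4.12% of features reached it. Pkmyt1 read 0.06 on the array against 1-week control, -2.26 on its dye reversal and -1.45 against 6-week control, a mean of -1.28 ± 0.20 (SE, n = 2, the first 2 arrays averaged) with an adjusted p of 0.746. Without the dye reversal the mean was -0.70, and its spots differed by up to 1.07.

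Markers of cell types were measured beside the set. Of 17 measured endothelial markers (of 22 listed), 6 had a positive and 11 a negative ratio at 1 week (median -0.13), and 5 and 12 at 6 weeks (median -0.26). Among them Cldn5 of the tight junction was at -0.68 and -0.90, while the receptor Tek was at 0.44 and 0.33. Medians of leukocyte markers (17 of 19) were -0.03 and 0.0020, of fibroblast and smooth muscle markers (11 of 12) -0.09 and 0.09, of epithelial markers (7 of 8) -0.09 and 0.03, and of erythroid markers (3 of 5) 0.15 and -0.54. Over all features 0 markers were called. At 1 week an unadjusted p under 0.05 was reached by 5 endothelial markers, 1 above 0 and 4 below. It was also reached by 2 fibroblast and smooth muscle, 1 leukocyte and 1 erythroid marker, beside 6.65% of all features. At 6 weeks 4 markers reached it, beside 4.12% of all features. Postn (2.25) and Acta2 (1.14) were above 0 and Cldn5 and Lyz2 (-0.58) below, and 4 of the 11 fibroblast and smooth muscle markers were negative. In the mean of both times, among genes with agreeing spots, 3 passed: Cldn5 at -0.79 (adjusted p 0.0225), Postn at 1.43 (0.0343) and Acta2 at 0.80 (0.0364). That fit called 1.83% of its 5625 genes in this mean. These calls rest on the deposited sign: with the 1-week reversal, the 6-week reversal or both turned, 0 of the 5625 genes were called. The part of these markers in the values of the cell cycle genes was not tested.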

How the data were processed

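Gene expression was measured on 6 two-channel arrays. The deposited values are log2 ratios, 1 for each of 32448 features and array, and turned back into folds each falls, by the values, within 0.02 of a whole number of hundredths. Scanner, background correction, normalization, dyes and direction of the ratio are not given in the sources used here. Intensities were not used, so signal over background is unknown.

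The probe table gave 24344 features 1 gene symbol, 98 several and 8006 none; 24076 matched RefSeq genes of GRCm38.p6 and 0 symbols changed. Spots of a gene were averaged per array, which gave 11138 named genes, and the 8104 unnamed features were tested on their own. Each array was centred on its median and kept its deposited sign, also where labelled a dye reversal, since channel 1 is smoke on all 6 per the labels. The dye-swapped pair was averaged to 1 replicate, which left 3 replicates at 1 week and 2 at 6 weeks. The model was fitted in R 4.3.3 by limma 3.58.1 (lmFit, eBayes), with 1 coefficient per time, two-sided tests, Benjamini-Hochberg adjustment over 19242 tests, 3 residual and 2.39 prior degrees of freedom. The second fit took the 5625 genes with agreeing spots. The code was tested on simulated data. Replicate numbers followed the order of the samples and pair nothing.

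The members, the roles and the lists of other genes were chosen with earlier results of these data known. Genes were named by rule: those that passed, among genes with 1 sign on every array of a comparison up to 6 per sign of largest mean, and well-known cell cycle genes whatever their values. Ccnf, Cdc26, Cdk5r1, Cdk2ap1, Mcm9, Ccnl2, Cdc42ep1 and the markers Cldn5, Tek, Lyz2, Postn and Acta2 were also named after their values were seen. Windows before gene starts were printed for genes whose window overlaps no other annotated gene.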

Additional observations from a re-analysis of the deposited data

Results flagged for a closer look

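In 3 genes every 1-week array lay on 1 side of 0 and every 6-week array on the other. Cdc42ep5, an effector of Cdc42, read -0.58, -0.29 and -0.13 at 1 week and 0.16, 0.45 and 0.17 at 6 weeks, a difference of 0.57 with an adjusted p of 0.712 among genes with agreeing spots. Cdk11b, a kinase of splicing and transcription, read 0.34, 0.27 and 0.23 and then -0.09, -0.23 and -0.16, a difference of -0.44 with an adjusted p of 0.802. Cdk5r2, an activator of Cdk5, read -0.21, -0.14 and -0.07 and then 0.22, 0.30 and 0.31, a difference of 0.42 with an adjusted p of 0.821. The difference between the times was tested with limma for each and did not pass. Such a pattern held for 1.85% of all features. It rests on the deposited sign of the dye reversals: with both turned, the means at 1 week and 6 weeks were 0.05 and 0.02 for Cdc42ep5, 0.05 and -0.05 for Cdk11b, and 0.00098 and 0.14 for Cdk5r2, and 0 of the 3 kept the pattern.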

How the results depend on the processing

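Over 24 alternatives to the sign, dye, centring, scaling, spot summary, variance model and arrays used, 0 of the 76 genes were called at 1 week, at 6 weeks or for the difference, with all features or with agreeing spots (the fit of named genes was run without the filter on spots, and fits of each time alone give no difference). The 1 call in any alternative was Cdc42ep2 in the mean of both times among genes with agreeing spots. It came with a dye term in the model, which gave 239 calls in all and an adjusted p of 0.0354 for Cdc42ep2. That setting also took each of the 6 arrays as a replicate, so the dye-swapped pair was not averaged. With 6 replicates and no dye term, 0 genes of the set were called there and the smallest adjusted p of the set was 0.0589. Over the alternatives the smallest adjusted p of the set there ran up to 0.799. The median of the set ran from -0.10 (dye term) to -0.01 (1-week reversal turned) at 1 week and from -0.01 (without the array against 6-week control) to 0.07 at 6 weeks. With both dye reversals turned, 25 of the 76 genes changed direction at 1 week and 13 at 6 weeks, Ccnb2 among them at -0.58. The sign of the reversals, 2 or 3 replicates per time and unknown signal over background limit every value. Beyond the ratio within each array and the averaged dye-swapped pair, no pairing was possible because the labels give the samples no replicate numbers.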
